A study of Mus musculus with 6 samples.

Results

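Sterol efflux genes and the liver X receptors (LXR) that control them were described in the mouse embryonic fibroblast line NIH3T3. The genes were taken by symbol from the deposited count table, and all 9 names had a row among its 35275 genes: Abca1, Abcg1, Abcg4, Nr1h2, Nr1h3, Apoe, Mylip, Scarb1 and Osbpl5. The set was chosen by a reading of earlier fold changes between the groups, in which Abcg1 was higher in the NgBR line, so that the values of the 9 genes are given as a description. They were fitted with all other genes, no p-value of theirs is used, and a call among them is read only as a description. The series holds 6 RNA-seq libraries, 3 of wild-type NIH3T3 cells and 3 of the line labelled 3T3NgBR. That line was made by transfection of a pIRES plasmid with HA-tagged NgBR and kept under G418 selection until stable, and the sources used here do not say whether it is a clone or a pool. NgBR is the Nogo-B receptor, the product of Nus1. Both lines grew in DMEM with penicillin, streptomycin and 10% calf serum, and no further treatment or empty-vector line is part of the comparison. The labels do not say whether the replicates were separate cultures, so that the spread between them may be technical.

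Cells rid themselves of surplus cholesterol by handing it to apolipoproteins and lipoprotein particles outside the cell. ABCA1 loads lipid-poor apolipoproteins, whereas ABCG1 and its relative ABCG4 pass sterols to particles that already carry lipid. The genes of ABCA1 and ABCG1 are switched on by LXR-alpha (Nr1h3) and LXR-beta (Nr1h2), nuclear receptors that bind oxysterols and act as dimers with a retinoid X receptor. Macrophages are the cells best known for this response, and fibroblasts are a classic system for measuring ABCA1-dependent efflux. In liver, NgBR has been linked to LXR-alpha through the kinase AMPK.

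LXR dimers bind direct repeats of a hexamer spaced by 4 bases, and the Abca1 promoter carries a known element of this kind. It is shown here because Abca1 and Abcg1 are the textbook pair of targets of this element, and the counts of the pair are set against each other further on. The RefSeq promoter of Abca1 (GRCm38.p6, chr4:53159846-53160145, minus strand, from 250 bases before to 50 after the transcript start, printed 5′ to 3′ on the strand of the gene) has the matched repeat in capitals.

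Abca1 promoter: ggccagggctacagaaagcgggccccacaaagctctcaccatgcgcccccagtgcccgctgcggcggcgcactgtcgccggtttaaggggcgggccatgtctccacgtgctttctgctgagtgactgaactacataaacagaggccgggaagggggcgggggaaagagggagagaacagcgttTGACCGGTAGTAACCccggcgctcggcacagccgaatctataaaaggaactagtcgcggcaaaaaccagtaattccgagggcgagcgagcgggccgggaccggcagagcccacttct

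Read on the opposite strand, with the matched bases of both repeats in capitals, the matched stretch (chr4:53159948-53159962) ends 52 bases before the transcript start. The match leaves out the first base of each hexamer. The lower-case bases are therefore the spacer and the first base of the second hexamer.

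Abca1 element: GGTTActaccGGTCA

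The search pattern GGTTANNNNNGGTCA, on both strands, was written after this promoter was read, to fit its form of the element. It was present in 16 of 32851 promoters of the same length (0.0487%), and Abca1 was the only one of the 6 members with a promoter in the table that held it. The strict repeat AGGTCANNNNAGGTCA was found in 5 promoters, none of a member. The single hexamer AGGTCA, which lies within the strict repeat, was found in 16.3% of promoters and in 0 of the 11 promoters of members. The members with a promoter in the table were Abca1, Nr1h2, Nr1h3, Mylip, Apoe and Osbpl5. A missing match says only that these letters are not in these windows.

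Depth ran with the groups. The libraries labelled NgBR overexpression had total counts from 7369961 to 10358381, on average 3.50-fold fewer than wild type, with 29515072 to 35511769. Levels are given as CPM, counts scaled to a common library size with TMM factors. Nus1, the gene behind the label, was at 211 ± 22.8 CPM in wild type and 178 ± 11.0 CPM in the labelled libraries (SD, n = 3 each), so that counts at the mouse gene did not rise with the label. Reads of the plasmid may not have been counted there, and every direction below is that of the libraries so labelled. All 8 fibroblast markers, such as Col1a1, Vim and Pdgfrb, passed the filter on low counts, and their summed level was between 19599 and 24396 CPM in wild type and between 19674 and 31798 CPM in the other group.

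Among the exporters, Abcg1 was the gene that stood apart between the groups. Abcg1 (ENSMUSG00000024030, mm10 chromosome 17, 31057675 to 31117988, plus strand, protein-coding) had 11, 2 and 3 counts in wild-type libraries 1 to 3. It had 21, 26 and 26 counts in NgBR libraries 1 to 3, although these libraries were shallower. These counts correspond to 0.315, 0.0677 and 0.0903 CPM in wild type and to 2.95, 2.57 and 2.48 CPM in the other group. The lowest NgBR library thus lay well above the highest wild-type library, and the 3 NgBR values were close to each other.

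The fitted log2 fold change of Abcg1 was 4.0 (SE 0.58, 95% interval 2.69 to 5.30), a 16-fold higher level. The pooled counts, 73 against 16, gave a ratio of 16.1 with an exact 95% interval of 9.28 to 29.6 that covers counting error only. Wild-type library 1 held most of the wild-type reads, and without it the log2 fold change was 4.96. With each library left out in turn it lay between 3.66 and 4.96. When every library was thinned to the depth of the shallowest, Abcg1 kept 1, 1 and 0 counts in wild type and 21, 16 and 19 in the other group. No annotated gene overlapped an exon of Abcg1.

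**Figure D1:**
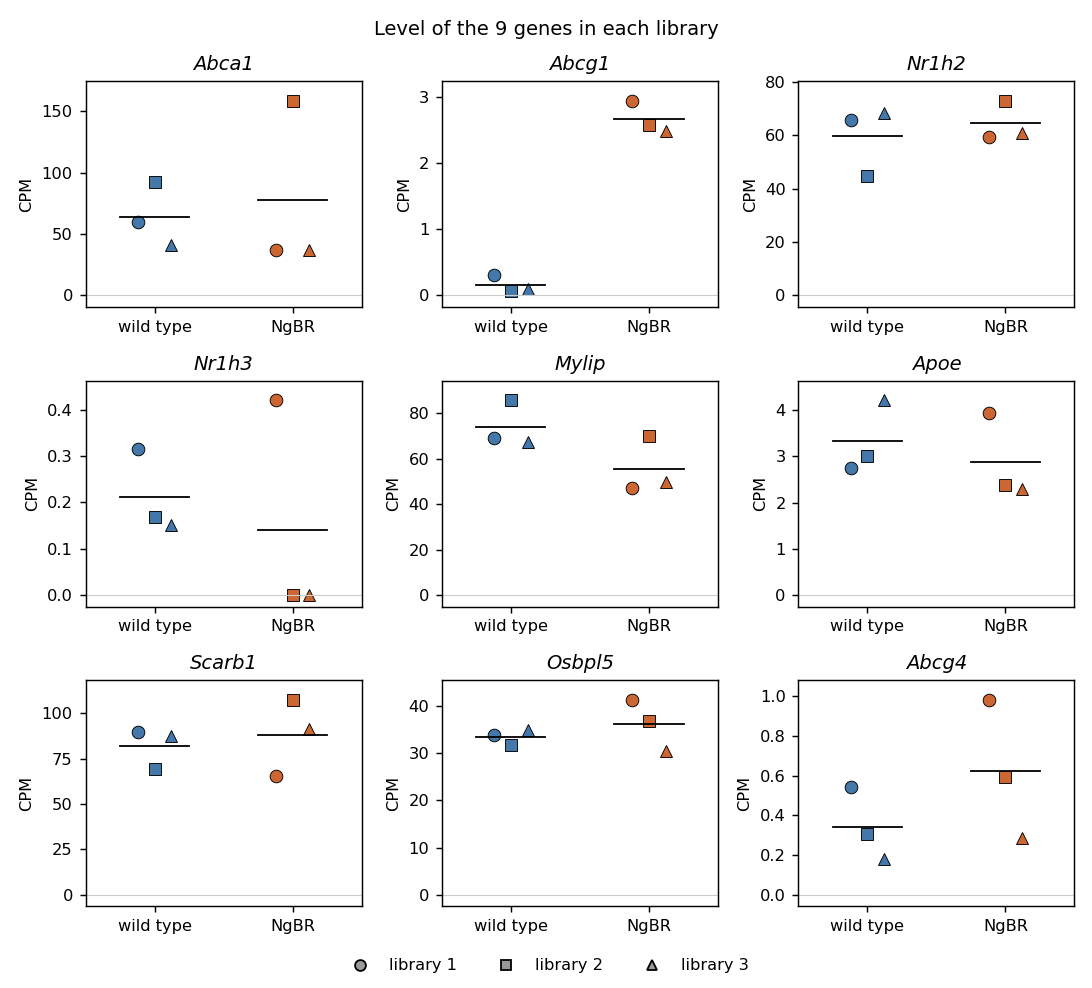
CPM (vertical axes, linear, each from 0) of the 9 genes in the 3 wild-type (blue) and 3 NgBR (orange) libraries. Symbols give the library number and horizontal lines the group means. The groups are apart for Abcg1, with NgBR libraries between 2.48 and 2.95 CPM, and overlap for the other 8 genes.

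Low counts decide how this gene entered the fit. Genes had to reach about 0.502 CPM, the equivalent of 10 counts at the median depth, in 3 libraries, and Abcg1 did so in the 3 NgBR libraries and in 0 wild-type libraries. A gene that passes only through its higher group had to differ, so that its place among the called genes describes it and supports nothing. Of the 9 genes, 8 passed this filter. The threshold for a call was an FDR (the Benjamini-Hochberg adjusted p) under 0.05 in edgeR's quasi-likelihood test over 12651 genes. Of the 8 genes, 1 was called, Abcg1, as higher, where 2.04% of all tested genes were called higher, 1.35% lower and 3.39% in either direction. The CPM ranges of the groups were apart for Abcg1 alone among the 8, where 18.6% of all tested genes had separate ranges, 9.21% with the NgBR libraries above and 9.37% with them below.

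Abca1 (ENSMUSG00000015243, chromosome 4, 53030787 to 53159895, minus strand) was counted 6169 times in wild type and 2253 times in the other group, and its groups overlapped. It was at 59.5, 92.3 and 41.0 CPM in libraries 1 to 3 of wild type and at 36.8, 159 and 36.8 CPM in NgBR libraries 1 to 3. Library 2 was the highest in both groups, and the other 2 NgBR libraries lay below all 3 wild-type libraries. The log2 fold change was 0.27 (SE 0.56, 95% interval -1.0 to 1.54). It was -0.81 without NgBR library 2 and 0.63 without wild-type library 2, so that 1 library decides its direction.

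Library 2 of each group was also the one richest in long transcripts. Across tested genes, the deviation of a library from the mean of all 6 was compared with exonic length as a description (Spearman, 12589 genes with an annotated length). The coefficient was 0.242 and 0.347 in wild-type and NgBR library 2 and -0.467 in NgBR library 3. Abca1 has 10.4 kb of exons. In NgBR library 2 it was 1.39 log2 units above its own mean over the 6 libraries. There the median of 1408 genes within 20% of its length was 0.23 above theirs. Of those genes, 98.3% had a lower signed deviation than Abca1, those below their mean included. In wild-type library 2 Abca1 was 0.61 above, against a median of 0.16. Offsets for exonic length and GC content left its log2 fold change at 0.20. What else set library 2 apart for Abca1 was not tested.

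**Figure D2:**
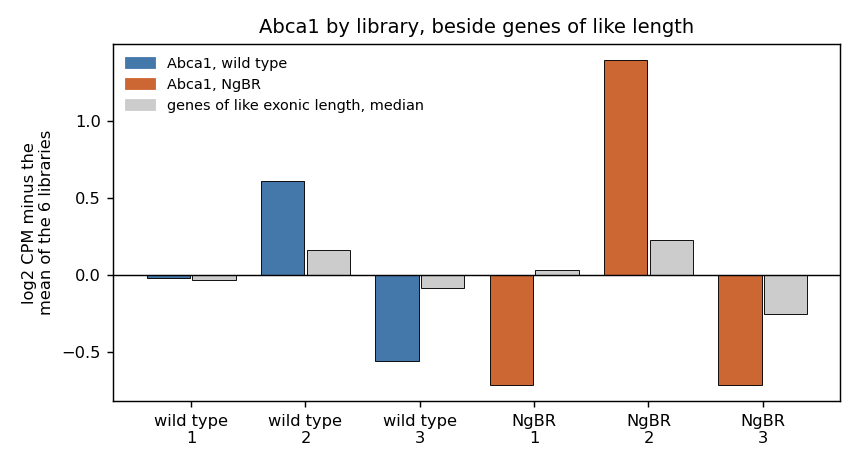
Level of Abca1 in each library relative to its own 6-library mean (vertical axis, log2 units; coloured bars) and the same as a median over 1408 genes of like exonic length (grey bars). Abca1 is 1.39 above its mean in NgBR library 2, where genes of like length are 0.23 above theirs.

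Because Abca1 and Abcg1 are read as a pair in LXR work, their levels were also set against each other per kb of exons within each library. Abca1 exceeded Abcg1 by 133-fold, 961-fold and 320-fold in wild-type libraries 1 to 3. In NgBR libraries 1 to 3 it exceeded Abcg1 by 8.79-fold, 43.5-fold and 10.4-fold. The ratio was smaller in each NgBR library than in any wild-type library, with counts of 2 and 3 for Abcg1 behind the largest values. As the set was chosen with Abcg1 known to be higher, this separation restates that difference and is a description.

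Abcg4 (ENSMUSG00000032131, chromosome 9, 44273188 to 44288615, minus strand), a sterol exporter best known from the brain, was close to the limit of detection. It had 19, 9 and 6 counts in wild-type and 7, 6 and 3 counts in NgBR libraries 1 to 3, or 0.343 ± 0.185 and 0.621 ± 0.349 CPM (SD, n = 3). The ranges overlapped, and the pooled ratio of 1.66 had an exact 95% interval of 0.855 to 3.09. Transcripts of Abcg1 and Abcg4 share no exact stretch longer than 38 bases.

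The receptors differed greatly in level. Nr1h2 (ENSMUSG00000060601, chromosome 7, 44549616 to 44553951, minus strand), LXR-beta, was at 65.9, 44.6 and 68.2 CPM in wild-type and 59.4, 73.0 and 61.0 CPM in NgBR libraries 1 to 3. The groups overlapped, with wild-type library 2 as the lowest value. The log2 fold change was 0.11 (SE 0.23, 95% interval -0.42 to 0.64), and it was -0.06 without wild-type library 2. A pseudogene row, Nr1h2-ps, is in the same table with 0 counts in each library.

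Nr1h3 (ENSMUSG00000002108, chromosome 2, 91184061 to 91202834, minus strand), LXR-alpha, had 11, 5 and 5 counts in wild-type libraries and 3, 0 and 0 in NgBR libraries 1 to 3. It did not reach the filter in any library and was not fitted. The wild-type to NgBR ratio of the pooled counts, 21 against 3, was 1.98 with an exact 95% interval of 0.593 to 10.4, so that equal levels and a several-fold lower level could not be told apart at this depth. A count of 3 over the NgBR libraries corresponds to 0.108 CPM, and over the wild-type libraries to 0.0307 CPM. Nr1h3 also shares exonic positions with the noncoding gene Gm13783 on the same strand. Reads at these positions may have been left uncounted or assigned to either gene. Per kb of exons, Nr1h2 was at a mean of 17.8 CPM against 0.0841 for Nr1h3 in wild type and at 19.2 against 0.0558 in the other group, so that most LXR transcripts were those of Nr1h2 in both.

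The remaining members carry or receive the sterol, or act on receptors and traffic. Apoe (ENSMUSG00000002985, chromosome 7, 19696109 to 19699188, minus strand), the apolipoprotein that accepts cellular cholesterol and is itself an LXR target, had 96, 89 and 140 counts in wild-type and 28, 24 and 24 counts in NgBR libraries 1 to 3. Its levels of 2.75, 3.01 and 4.21 CPM overlapped those of 3.93, 2.37 and 2.29 CPM. The log2 fold change was -0.23 (SE 0.36, 95% interval -1.04 to 0.57).

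Mylip (ENSMUSG00000038175, chromosome 13, 45389742 to 45412022, plus strand) encodes an LXR-induced ubiquitin ligase, also called IDOL. It was at 69.0, 85.8 and 67.6 CPM in wild-type and 47.2, 69.9 and 49.97 CPM in NgBR libraries 1 to 3. NgBR libraries 1 and 3 lay below all wild-type libraries and NgBR library 2 lay among them. The log2 fold change was -0.41 (SE 0.23, 95% interval -0.94 to 0.12). It was negative under each of the 18 alternative settings, between -0.62 and -0.29, as was that of Apoe, between -0.52 and -0.022. The sign is opposite to that of Abcg1. All settings draw on the same 6 libraries and the interval includes 0, so that the direction is not settled.

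Scarb1 (ENSMUSG00000037936, chromosome 5, 125277087 to 125341094, minus strand), the HDL receptor SR-B1 that moves cholesterol both ways across the membrane, was at 89.7, 69.1 and 87.7 CPM in wild-type libraries. It was at 65.7, 108 and 91.6 CPM in NgBR libraries 1 to 3. The NgBR range enclosed the wild-type range, and the log2 fold change was 0.10 (SE 0.24, 95% interval -0.45 to 0.66). It was -0.07 without NgBR library 2 and turned sign also without wild-type library 2.

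Osbpl5 (ENSMUSG00000037606, chromosome 7, 143688762 to 143756985, minus strand), a lipid transfer protein of contact sites between the endoplasmic reticulum and the plasma membrane, varied least in wild type. It was at 34.0, 31.8 and 34.9 CPM in wild-type and 41.4, 36.9 and 30.6 CPM in NgBR libraries 1 to 3. The coefficient of variation in wild type was 4.79%, the lowest of the 9 genes, and 14.98% in the NgBR libraries, where those of Abcg1 (9.21%) and Nr1h2 (11.6%) were lower. The log2 fold change was 0.11 (SE 0.21, 95% interval -0.36 to 0.58).

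**Figure D3:**
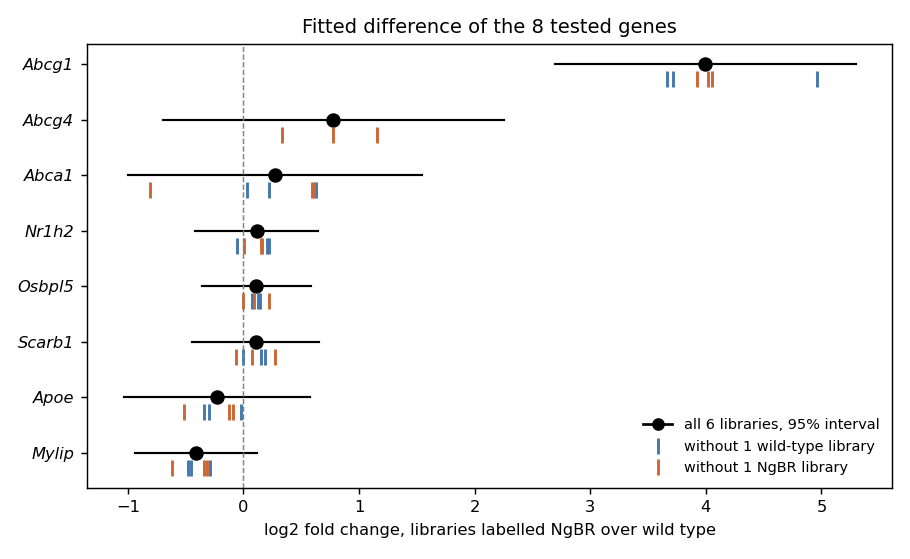
Fitted log2 fold change (horizontal axis, labelled NgBR over wild type) of the 8 tested genes, with 95% intervals as black lines, and the values with 1 library left out as ticks (blue, a wild-type library left out; orange, an NgBR library). The interval of Abcg1 runs from 2.69 to 5.30, and those of the other 7 genes include 0; Nr1h3 was below the filter, as was Abcg4 whenever a wild-type library was left out.

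The intervals set what these libraries can resolve. For Nr1h2, Scarb1 and Osbpl5 the 95% intervals stay between 0.734 and 1.57 of the wild-type level. For Abca1 the interval runs from 0.50 to 2.91 of the wild-type level. It thus includes a 2-fold higher level as well as lower levels down to about 0.50.

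To compare the genes with each other, CPM were divided by the kb of annotated exons. In wild type the order of the mean levels per kb was Mylip (22.9), Nr1h2 (17.8), Scarb1 (9.66), Osbpl5 (6.83), Abca1 (6.20), Apoe (1.56), Nr1h3 (0.0841), Abcg4 (0.0658) and Abcg1 (0.0216). Neighbours in this order had separate ranges over the 3 libraries except Osbpl5 and Abca1, Nr1h3 and Abcg4, and Abcg4 and Abcg1. In the NgBR libraries Abcg1 was at 0.366 ± 0.0337 CPM per kb (SD, n = 3), above Abcg4 at 0.119 ± 0.0669, and moved from the ninth to the seventh place. Its range, from 0.340 to 0.404, did not meet those of Apoe above it (1.07 to 1.84) or Abcg4 below it (0.0550 to 0.189). Even so, it remained below Apoe, Abca1, Osbpl5, Scarb1, Mylip and Nr1h2 in each NgBR library. With the longest annotated transcript in place of all exons, Nr1h2 (29.8), Scarb1 (26.6) and Mylip (24.2) led the wild-type order, and the places of Apoe, Nr1h3, Abcg4 and Abcg1 were as before.

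**Figure D4:**
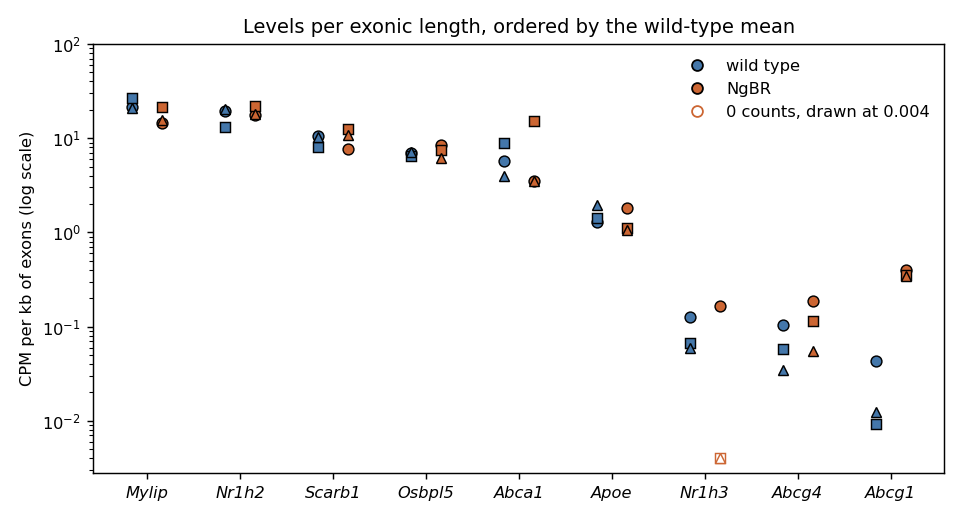
CPM per kb of exons (vertical axis, log scale) in each library, with genes ordered by the wild-type mean, wild type in blue and NgBR in orange; open symbols mark 0 counts. Abcg1 lies lowest in wild type (mean 0.0216) and between Apoe and Abcg4 in the NgBR libraries (mean 0.366).

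The rest of the sterol pathway was read from 9 lists with 97 different genes, of which 68 were tested. edgeR's quasi-likelihood test called 2 of them, both lower, where 3.39% of all tested genes were called. The median log2 fold change over the 68 was 0.03, against -0.01 over all tested genes, with 36 positive and 32 negative. The CPM ranges of the groups were apart for 18 of the 68, where 18.6% of all tested genes had separate ranges.

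Both called genes were in the list of further LXR targets, where 9 of 18 were tested, 0 were called higher and 2 lower, against 2.04% and 1.35% of all tested genes. Of the 9, 6 had positive and 3 negative log2 fold changes. Pltp, the phospholipid transfer protein that remodels HDL, was at 9.56, 9.34 and 11.8 CPM in wild-type and 1.68, 1.88 and 2.68 CPM in NgBR libraries 1 to 3. On the log2 scale it fell by 2.28 (SE 0.30, edgeR FDR 0.00381), and was called under each of the 18 alternative settings. Lpl, lipoprotein lipase, was at 183, 324 and 158 CPM in wild-type and 49.96, 99.7 and 39.3 CPM in NgBR libraries 1 to 3. On the log2 scale it fell by 1.82 (SE 0.41, edgeR FDR 0.0464).

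The call of Lpl was lost when wild-type library 1 or 2 (edgeR FDR 0.0668 and 0.138) or NgBR library 1 or 3 (0.235 and 0.152) was left out, with RLE factors (0.0515) and with a minimum of 1 CPM in 3 libraries (0.0556). Its log2 fold change stayed between -2.32 and -1.44 under the 18 alternatives. Both genes moved opposite to Abcg1. Among the most abundant genes of the list, Scd2, a stearoyl-CoA desaturase, was at 871 ± 299 and 1788 ± 519 CPM with a log2 fold change of 1.04 (edgeR FDR 0.269), and its NgBR libraries lay above all wild-type libraries. Fasn, fatty acid synthase, was at 333 ± 36.5 and 337 ± 121 CPM. Srebf1, the transcription factor through which LXR drives lipogenesis, had a log2 fold change of 0.17 (SE 0.20, edgeR FDR 0.865). Abcg5, the partner of Abcg8 in sterol export from liver and gut, had 0 counts in all 6 libraries, which allows up to 0.0307 CPM in wild type and 0.108 CPM in the NgBR libraries.

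LXR partners and cofactors had 9 of 10 genes tested and 0 called, with log2 fold changes between -0.33 and 0.27. The corepressor gene Ncor1 was at 276 ± 65.4 CPM in wild type and at 333 ± 129 CPM in the other group. Rxra, the dimer partner of LXR, was at 129 ± 18.6 and 117 ± 18.1 CPM (log2 fold change -0.14, edgeR FDR 0.910). Rxrg had 0 counts in wild type and 1 in the NgBR libraries.

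Of the enzymes that make or remove LXR ligands, 4 of 8 were tested and 0 called. Their log2 fold changes lay between 0.25 and 1.09, with 4 positive and 0 negative. The median was 0.66, against -0.01 over all tested genes. Cyp39a1, an oxysterol hydroxylase, was at 28.6 ± 13.2 and 38.3 ± 6.15 CPM. The genes of the 25- and 27-hydroxylases of cholesterol, Ch25h and Cyp27a1, are listed at 0 counts in all 6 libraries.

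The other transporters of the families of Abca1 and Abcg1 had 8 of 19 members tested and 0 called, with log2 fold changes between -0.67 and 0.30. The most abundant were Abca2, at 88.6 ± 10.0 and 105 ± 46.0 CPM, and Abca5, at 83.1 ± 35.6 and 97.4 ± 60.7 CPM. Abcg2, the drug and urate exporter of the same subfamily as Abcg1, was at 27.4 ± 6.73 and 26.1 ± 2.82 CPM (log2 fold change -0.07, edgeR FDR 0.972).

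All 11 relatives of Osbpl5, the oxysterol-binding protein family, were tested, with 0 called. Osbpl9 was at 142 ± 27.8 and 122 ± 26.2 CPM and Osbp, the founding member, at 98.5 ± 1.29 and 105 ± 6.6 CPM. Osbpl6 and Osbp2 had the largest differences of the list, with log2 fold changes of -1.25 and -1.06 (edgeR FDR 0.155 and 0.132). Of the other sterol carriers, 10 of 10 were tested and 0 called. Npc2, which takes cholesterol out of lysosomes and whose protein has been reported to be stabilised by NgBR, was at 302 ± 33.9 and 225 ± 83.4 CPM (log2 fold change -0.43, SE 0.29, edgeR FDR 0.698). Scp2 was at 120 ± 5.99 and 130 ± 28.3 CPM.

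Lipoprotein receptors had 6 of 9 genes tested and 0 called. Lrp1, a large endocytic receptor, was at 3101 ± 995 and 2429 ± 1586 CPM. Cholesterol ester enzymes had 5 of 7 tested and 0 called, with Soat1, which esterifies cholesterol for storage, at 143 ± 41.6 and 202 ± 62.2 CPM and Lipa, the lysosomal hydrolase, at 87.2 ± 3.69 and 92.1 ± 9.79 CPM.

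AMPK subunits had 6 of 7 genes tested and 0 called. The catalytic subunit gene Prkaa1 was at 87.1 ± 2.93 and 97.2 ± 4.83 CPM (log2 fold change 0.16, SE 0.19, edgeR FDR 0.869). The regulatory subunit gene Prkab1 was at 39.4 ± 6.16 and 35.1 ± 1.92 CPM. The groups had separate ranges for 3 of the 6 genes, with the NgBR libraries above for Prkaa1 and Prkab2 and below for Prkaa2. Of all tested genes 18.6% had separate ranges, and the lipoprotein receptors also had 3 of 6. Prkab2, another regulatory subunit gene, was at 14.2, 20.6 and 13.8 CPM in wild-type and 21.8, 59.2 and 31.7 CPM in NgBR libraries 1 to 3 (log2 fold change 1.22, SE 0.37, edgeR FDR 0.157). It was called with DESeq2, with no filter on low counts and with the replicate block. Prkaa2, the other catalytic subunit gene, was at 0.859, 3.49 and 0.783 CPM and at 0.421, 0.693 and 0.287 CPM (log2 fold change -1.85, SE 0.75, edgeR FDR 0.372), with wild-type library 2 far above the rest.

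**Figure D5:**
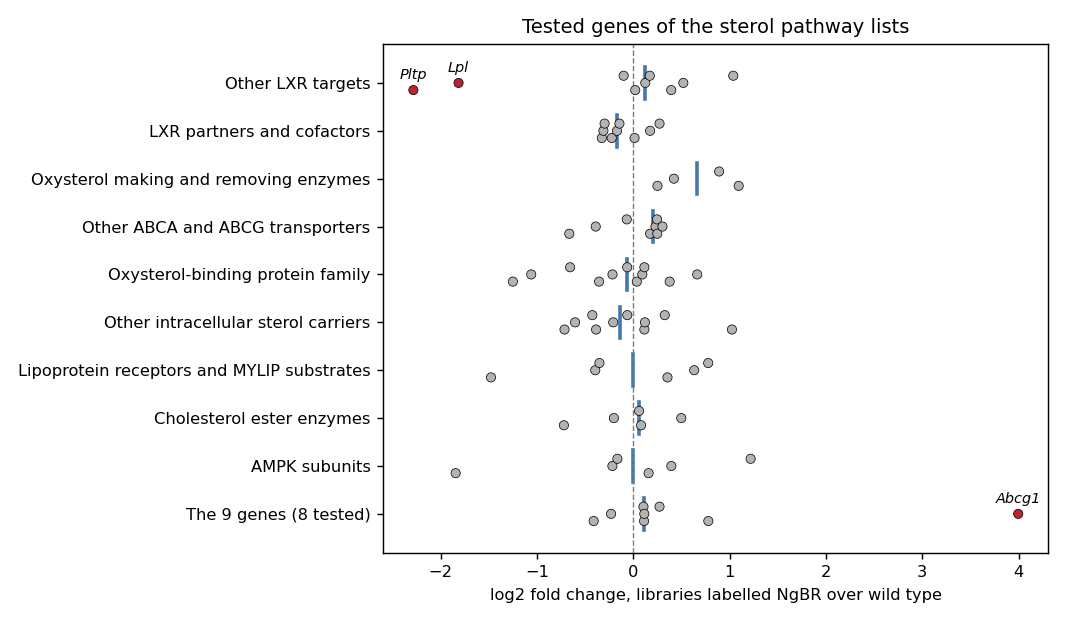
Fitted log2 fold change (horizontal axis, labelled NgBR over wild type) of each tested gene of the 9 lists and of the 8 tested members; red points were called by edgeR at an FDR under 0.05 and blue lines are list medians. Pltp (-2.28) and Lpl (-1.82) lie to the left and Abcg1 (4.0) to the right.

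Genes with the profile most like that of Abcg1 were found over the 6 libraries by the root mean square difference of centred log2 CPM. The search was among genes with a mean of at least 5 CPM, 10033 before those with symbols of predicted genes were left out. The 5 nearest included Bnc1 (0.46), a zinc finger protein of keratinocytes and germ cells, Hes1 (0.50), a target of Notch signalling, Gpr35 (0.51), and Ass1 (0.51), argininosuccinate synthase. Bnc1 was at 1.17, 0.609 and 0.993 CPM in wild-type and 10.2, 20.6 and 13.5 CPM in NgBR libraries 1 to 3. As for Abcg1, all NgBR libraries were above all wild-type libraries, while the spread within the NgBR group was wider than that of Abcg1. This likeness is a description, since any gene with a difference of similar size is near to Abcg1 by this measure.

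Abcg1 is known to be expressed in macrophages, endothelium and fat, and markers of those cells were set beside it. The 8 macrophage markers summed to between 13.7 and 14.9 CPM in wild type and between 9.68 and 13.4 CPM in the NgBR libraries, mostly Cd14 and Cd68. Cd14 was lower in the NgBR libraries, at 10.2 ± 2.13 and 6.85 ± 1.19 CPM (log2 fold change -0.57, not called). Cd68 was at 2.23 ± 0.884 and 2.32 ± 0.571 CPM and Csf1r at 1.03 ± 0.231 and 1.16 ± 0.802 CPM. Itgam was at 0.248 ± 0.293 and 0.0989 ± 0.171 CPM, and Adgre1, listed as Emr1, at 0.0196 and 0 CPM. The mannose receptor Mrc1 was at 0.188 ± 0.111 and 0.749 ± 0.281 CPM, Lyz2 at 0.167 ± 0.153 and 0.354 ± 0.122 CPM and Ptprc at 0.215 ± 0.0226 and 0.0637 ± 0.110 CPM (SD, n = 3), each from 11 or fewer counts in a library. The 5 endothelial markers summed to between 0.609 and 0.888 CPM and between 0.842 and 2.10 CPM. Cdh5 was at 0.134 ± 0.0402 and 0.544 ± 0.0598 CPM, from 5, 5 and 3 counts against 4, 6 and 5. The means of Pecam1 and Emcn were also higher in the NgBR libraries. Those of Tek (0.362 and 0.293 CPM) and Tie1 (0.0401 and 0.0318 CPM) were lower. The 7 adipocyte markers summed to between 1.29 and 2.11 CPM and between 1.88 and 3.65 CPM, with Cidec at 0 counts in all libraries and Adipoq at 1 count. Pparg among them had 0, 0 and 3 counts in wild-type and 15, 0 and 10 in NgBR libraries 1 to 3. Fabp4, the only 1 of the list that passed the filter, was at 1.44 ± 0.245 and 1.48 ± 0.559 CPM. Plin1 had 4, 1 and 1 counts in wild-type and 0 in each NgBR library, and Cebpa had 3, 0 and 9 against 4, 0 and 0. The 5 epithelial markers summed to at most 0.982 CPM in any library, with Epcam, Krt18 and Cldn4 at 0 counts in all 6. The part of the macrophage, endothelial and adipocyte markers in the difference of Abcg1 was not tested. In bulk RNA, more cells with a transcript and more of it in each cell cannot be told apart.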

How the data were processed

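The authors deposited unnormalized counts for each gene in 3 wild-type and 3 NgBR libraries. HISAT2 2.0.5, featureCounts 1.5.0-p3, DESeq2 and build mm10 are named in the submitters' processing notes (annotation, strand setting and filters: not given in the sources used here). Per the labels' protocols, libraries were made from 1.5 micrograms of total RNA with a SMARTer mRNA-seq kit.

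The quasi-likelihood F test of edgeR 4.0.16 under R 4.3.3 was run on the counts with TMM factors, filterByExpr (a minimum count of 10) and Benjamini-Hochberg adjustment over all 12651 genes kept. Standard errors were derived from the F statistic. Exact binomial intervals of pooled ratios used scipy 1.17.1. Exonic lengths came from GENCODE M21, which held 97.8% of the identifiers, and promoters from RefSeq (GRCm38.p6). The fit was also run on simulated counts, whose outcome is not given here and is not used for any statement.

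The members and lists were chosen with earlier results of these data known. Named by rule were the members, each list's called genes and 2 most abundant tested genes, Nus1 and Dhdds, and the 5 profiles nearest to Abcg1. Other genes were named after their values were seen. Some genes of these lists and profiles are not reported here by name, though the counts include them. Dhdds was at 36.7 ± 11.0 and 37.8 ± 5.09 CPM (SD, n = 3). The alternatives were DESeq2 1.42.0, limma-voom (limma 3.58.1), other scalings and filters, the replicate block, left-out libraries, thinning, removal of the 10 most abundant genes, and length and GC offsets.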

Additional observations from a re-analysis of the deposited data

How the results depend on the processing

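Abcg1 was called under all 18 alternatives, with log2 fold changes between 3.66 and 4.96, both from single libraries left out, and no other member was called under any of them. As the choice of the members used this contrast, these calls are a description. Without 1 library, calls over all genes numbered between 225 and 374, against 429, and calls in the lists between 1 and 2, against 2. Calls over all genes were 719 with DESeq2, 688 with no filter on low counts and 719 with the replicate block. Calls in the lists were 6 with DESeq2, 5 with no filter on low counts, 4 with the replicate block, 4 without both libraries numbered 2, and 1 each with RLE factors and with a minimum of 1 CPM in 3 libraries. The genes that joined Pltp and Lpl were Osbp2, Osbpl6, Prkab2, Scd2, Soat2 and Olr1. Soat2 is below the main filter, with 10, 269 and 12 counts in wild-type libraries 1 to 3 and 3 in the other group, so that 1 library holds most of its counts. The log2 fold change of Abca1 was -0.012 with limma-voom, -0.016 with the replicate block and -0.45 without both libraries numbered 2, and lay between -0.81 and 0.63 without 1 library. Without both libraries numbered 2, Nr1h2 was at -0.16 and Scarb1 at -0.17. Without 1 library, Nr1h2 lay between -0.056 and 0.22, Scarb1 between -0.067 and 0.27 and Osbpl5 between -0.0010 and 0.22. The cause of these turns was not tested. Deviations of same-numbered libraries from their group means had correlations across genes of 0.015, 0.34 and 0.43 for numbers 1 to 3. Differently numbered libraries were not compared, so that whether the numbers pair the samples was not settled. The block fit is given only as an alternative. Abcg4 was below the filter, and gave no value, in the thinned libraries, with the minimum of 1 CPM and without any single wild-type library. Depth limits Nr1h3, Abcg4 and the wild-type level of Abcg1, each with 34 counts or fewer over the wild-type libraries.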

Other observations

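The closest protein-coding neighbours of Abcg1 were nearly silent. Of the 5 nearest protein-coding genes on each side, 6 had 0 counts in all 6 libraries, among them the trefoil factor genes Tff3, Tff2 and Tff1 within 43.4 kb of its 3′ end, and Umodl1 at 47.0 kb on the other side. Dnah8 had 3 counts and Tmprss3 had 1, all in wild-type libraries. The expressed genes among those examined, Glo1 at 431 kb and Btbd9 at 481 kb, had log2 fold changes of -0.17 and -0.57 (edgeR adjusted p = 0.94 and 0.70). They lie on the side of lower coordinates. On the side of higher coordinates the genes examined ended with Ubash3a at 89.9 kb, and genes beyond it were not examined. All the genes examined were chosen by position, after the values of Abcg1 were seen.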
